A study of Homo sapiens and Mus musculus with 12 samples.

Results

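The 10 genes described here encode the cyclins, cyclin-dependent kinases (CDKs) and CDK inhibitors that control the G1 phase of the cell cycle: the D-type cyclins *CCND1*, *CCND2* and *CCND3*, the E-type cyclins *CCNE1* and *CCNE2*, the kinases *CDK4* and *CDK6*, and the Cip/Kip inhibitors *CDKN1A*, *CDKN1B* and *CDKN1C*. They were chosen by name, with the mouse genes of the same symbols and with earlier results of these data known. All 10 were found in each species, among 63677 human and 47729 mouse gene identifiers. RNA-seq was performed on MDA-MB-231, a human triple-negative breast cancer cell line, and on 4T1, a mouse mammary carcinoma cell line, both labelled as WT epithelial cells of the breast. Cells of each line were exposed for 24 h to ponatinib (1 μM), which inhibits several tyrosine kinases, or to its solvent DMSO, and 3 libraries per group (12 in all) were analysed. Each species is represented by 1 cell line and 1 dose and time, and the labels do not say whether the libraries of a group came from separate cultures, so that the p-values measure the spread between these libraries.

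D-type cyclins are made in response to growth factor signals and activate CDK4 and CDK6, which start the phosphorylation of the retinoblastoma protein and so release E2F transcription factors. E-type cyclins, themselves targets of E2F, then activate CDK2 and carry cells into S phase. The Cip/Kip proteins p21 (*CDKN1A*), p27 (*CDKN1B*) and p57 (*CDKN1C*) bind and inhibit cyclin-CDK2 complexes, while p21 and p27 also help to assemble cyclin D with its kinase.

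The MDA-MB-231 libraries held 15012884 to 17301760 counts each and the 4T1 libraries 17800675 to 18951493. In each of the 4 groups replicate 1 stood further from replicates 2 and 3 (chi-square per gene 8.17 to 14.7) than these stood from each other (2.86 to 6.62). Levels are given as CPM (counts of a gene relative to its library total, scaled by the TMM method). The effect of ponatinib was tested line by line with the edgeR quasi-likelihood test, and p-values were adjusted over all genes tested (Benjamini-Hochberg, threshold 0.05). Among 12 epithelial markers, 10 were expressed highly enough to be tested in each line, but the adhesion molecule *CDH1* was at or near 0 CPM in MDA-MB-231 (0 with DMSO and 0.02 with ponatinib, as means), and at 830.5 CPM with DMSO in 4T1. Marker counts need the share of every gene that passed the test as a yardstick. For the human line this share was 26.8% (lower) and 27.2% (higher). The mouse line had 29.4% lower and 29.5% higher. No marker list was tested against these shares. The summed epithelial markers of MDA-MB-231 lay between 2106 and 2558 CPM with DMSO and between 3107 and 3922 CPM with ponatinib. Of the 10 epithelial markers tested there, 6 were higher. The 4T1 sums lay between 7910 and 9107 CPM with DMSO and between 8046 and 8861 CPM with ponatinib. Of the 10 epithelial markers tested in that line, 4 were lower and 1 was higher. *CLDN7* (log2 fold change 1.26), *KRT8* (0.88) and *KRT7* (0.88) were among those that rose in MDA-MB-231, whereas in 4T1 *Krt7* (-0.87) and *Krt18* (-0.54) fell and *Krt8* rose (0.24). Of 9 mesenchymal markers, 3 were tested in MDA-MB-231, with 1 lower and 2 higher. In 4T1, 4 were tested, with 2 lower, 1 higher and 1 not called (median log2 fold change -0.37). *VIM* was the abundant one, at 1288 CPM with DMSO and 817 CPM with ponatinib in MDA-MB-231 and at 3257 and 3605 CPM in 4T1. *COL1A1* in MDA-MB-231 rose from 27.8 to 74.9 CPM. The summed leukocyte markers stayed under 2.44 CPM and the summed endothelial markers under 6.08 CPM in every library, with the leukocyte marker *PTPRC* at 0 in MDA-MB-231 and at 0.11 CPM at most, as a group mean, in 4T1. Their part in the results was not tested.

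In MDA-MB-231, 7 of the 10 genes were lower with ponatinib than with DMSO, 2 were higher (*CDKN1B* and *CDKN1C*) and 1 (*CCND2*) did not pass the test, and the median log2 fold change was -0.77. Of all 14610 genes tested in this line, 26.8% were lower and 27.2% were higher, and the median log2 fold change was 0.02. In 4T1, 7 of the 9 genes tested were lower, none was higher, and *Ccnd2* and *Cdk4* did not pass the test, with a median of -0.42. There, 29.4% of 13286 genes tested were lower and 29.5% were higher. *Cdkn1c* was too rare in 4T1 to be tested. The ponatinib and DMSO libraries did not overlap for 9 of the 10 genes in MDA-MB-231, where this held for 60.4% of all genes tested, and for 7 of the 9 in 4T1, where it held for 63.4%. When replicate 1 of every group was left out, an alternative chosen after seeing the data, the counts in the human line were again 7 down and 2 up, and 4T1 again had 7 down. In bulk RNA, a smaller share of cells that express a gene and less RNA per cell cannot be told apart.

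**Figure D1:**
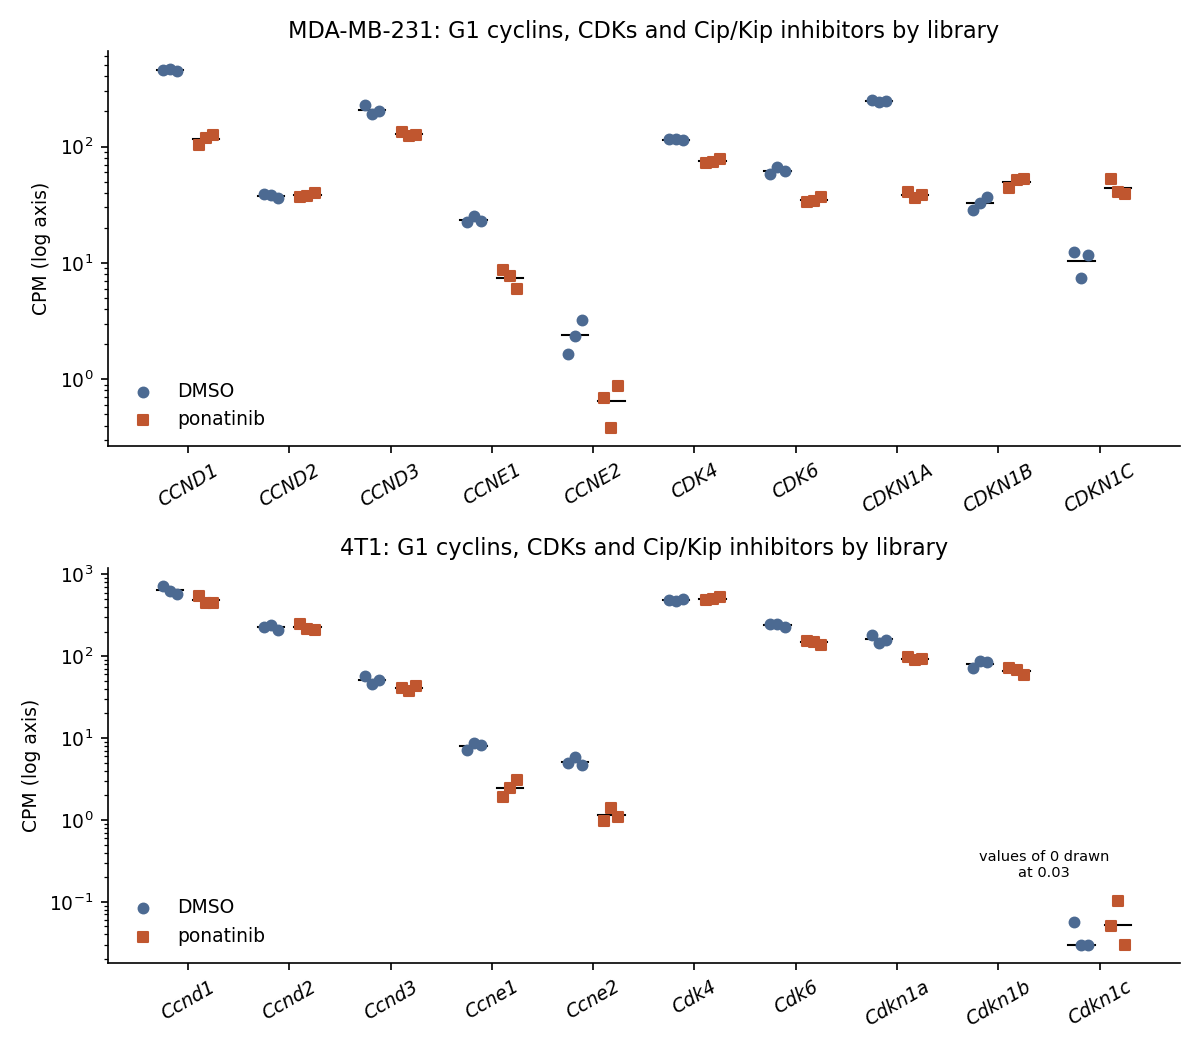
Level of each gene in every library, in CPM on a log axis, for MDA-MB-231 (upper panel) and 4T1 (lower panel), with DMSO libraries as circles, ponatinib libraries as squares and group means as bars (values of 0 and the DMSO mean of *Cdkn1c* are drawn at the lower edge). In MDA-MB-231 the largest gaps between the groups are those of *CDKN1A* and *CCND1*, which were lower with ponatinib, and *CDKN1C*, which was higher, and in 4T1 those of *Ccne1* and *Ccne2*.

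Among the D-type cyclins, *CCND1* fell in both lines, and the fall was far deeper in the human line. Human *CCND1* (ENSG00000110092, chr11:69641156-69654474 in hg38) encodes cyclin D1, the D-type cyclin most often overproduced in breast cancer. It measured 455, 466 and 449 CPM in the DMSO libraries and 102, 119 and 125 CPM in the ponatinib libraries of MDA-MB-231. All 3 ponatinib libraries lay far below all 3 DMSO libraries, by a gap much wider than the spread within either group. The group means were 457 ± 8.88 and 116 ± 11.9 CPM (SD, n = 3 each), a 3.95-fold lower level with a log2 fold change of -1.98 (95% confidence interval -2.17 to -1.79, adjusted p = 1.55e-08 in the edgeR quasi-likelihood fit). In 4T1, *Ccnd1* (ENSMUSG00000070348, chr7:144483668-144493662 in GRCm39) measured 731, 627 and 570.0 CPM with DMSO and 537, 448 and 453 CPM with ponatinib. The groups did not overlap, but the lowest DMSO library and the highest ponatinib library were close. The log2 fold change was -0.42 (95% confidence interval -0.64 to -0.21, adjusted p = 0.00208 by the same test), a 1.34-fold lower level.

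*CCND2* (ENSG00000118971, chr12:4269771-4305353 in hg38), which encodes cyclin D2, was the only one of the 10 genes that passed the test in neither line although it was tested in both. In MDA-MB-231 it measured 39.1, 38.1 and 36.1 CPM with DMSO and 36.8, 37.6 and 40.1 CPM with ponatinib, and the groups overlapped. Its log2 fold change was 0.02 (95% confidence interval -0.17 to 0.20, adjusted p = 0.892 in edgeR's quasi-likelihood fit). In 4T1, *Ccnd2* measured 229, 240.4 and 210.4 CPM with DMSO and 249, 216 and 211 CPM with ponatinib, and the groups overlapped again (log2 fold change -0.01, 95% confidence interval -0.19 to 0.17). The intervals leave room for changes of up to 0.20 in either line on the log2 scale.

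*CCND3* (ENSG00000112576, chr6:41934934-42050357 in hg38), the gene of cyclin D3, fell in both lines. In MDA-MB-231 its DMSO libraries measured 228, 192 and 202 CPM and its ponatinib libraries 133, 122 and 126 CPM, without overlap. This was a log2 fold change of -0.71 (95% confidence interval -0.89 to -0.52, adjusted p = 2.63e-05 in edgeR's quasi-likelihood fit). In 4T1, *Ccnd3* measured 56.7, 45.4 and 50.7 CPM with DMSO and 41.2, 37.2 and 43.2 CPM with ponatinib, and the groups were separated by a narrow gap. The log2 fold change of -0.33 (95% confidence interval -0.54 to -0.12) passed the test at an adjusted p of 0.00932, but not when libraries were scaled by total counts (-0.21, adjusted p = 0.0678) or without the second ponatinib library (-0.27, adjusted p = 0.0538).

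The E-type cyclins showed the deepest falls in 4T1, and falls of similar size in MDA-MB-231. Human *CCNE1* (ENSG00000105173, chr19:29811991-29824312 in hg38), encoding cyclin E1, measured 22.5, 25.1 and 22.7 CPM with DMSO and 8.71, 7.71 and 5.91 CPM with ponatinib. Every ponatinib library was well below the lowest DMSO library. The level was 3.16-fold lower, with a log2 fold change of -1.66 (95% confidence interval -1.97 to -1.35, adjusted p = 2.34e-06 in edgeR's quasi-likelihood fit). Mouse *Ccne1* measured 7.20, 8.67 and 8.20 CPM with DMSO and 1.89, 2.48 and 3.09 CPM with ponatinib. Its log2 fold change of -1.69 (95% confidence interval -2.10 to -1.28, adjusted p = 3.56e-06) was almost the same as that of the human gene, at a lower level.

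*CCNE2*, the gene of cyclin E2, was the least abundant of the human genes, so that its fold change was the least precise. MDA-MB-231 held 112 counts of it over the 3 DMSO libraries and 33 over the 3 ponatinib libraries. Its levels were 1.66, 2.33 and 3.21 CPM with DMSO and 0.694, 0.382 and 0.876 CPM with ponatinib, without overlap. The log2 fold change was -1.86 with a wide 95% confidence interval of -2.67 to -1.04 (adjusted p = 0.00127 in edgeR's quasi-likelihood fit). In 4T1 the DMSO libraries measured 4.93, 5.84 and 4.70 CPM and the ponatinib libraries 0.971, 1.39 and 1.08 CPM. This was the deepest fall of the set in that line, 4.46-fold, with a log2 fold change of -2.16 (95% confidence interval -2.65 to -1.67, adjusted p = 1.81e-06). Some of these genes share part of their position with other genes, and the strand setting of the counting was not given in the sources used here. Mouse *Ccne1* is overlapped by *1600014C10Rik*, whose counts went from 316 to 1368 over 3 libraries each, in the other direction, human *CCNE2* by *NDUFAF6* (968 to 762 counts) and *INTS8* (719 to 700), and mouse *Ccne2* by *Ints8* (1801 to 1820). Mouse *Ccnd3* (2743 to 2322 counts) is overlapped on the opposite strand by the more abundant *Bysl* (4259 to 4384). *LTO1* overlaps *CCND1* in MDA-MB-231 (2954 to 2532) and *Ccnd1* in 4T1 (1175 to 1594).

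Promoter windows from RefSeq (GRCh38.p14) were read for 6 of the 10 human genes, each from 250 bases before to 50 bases after a start site. *CCND1*, *CCND2*, *CCNE2* and *CDKN1C* had no window among the sequences used here. The windows of 3 genes are printed because these 3 differed in response: *CDK4* fell in the human line only, *CDKN1A* had the deepest fall and *CDKN1B* moved in opposite directions in the lines. Capitals mark matches, on either strand, to 8 motifs, and adjoining matches can share bases. MYC and MAX are known to bind the E-box, written CACGTG. SP1 and related zinc finger proteins bind the GC box, for which the letters GGGCGG were searched. FOS and JUN proteins bind the AP-1 site, searched here as TGANTCA with any base at N. CREB and ATF factors recognise the cAMP response element, of which the core TGACGT was taken. E2F factors recognise the site searched as TTTNGCGC. FOXO and other forkhead factors recognise the letters TGTTTA, and NF-Y binds the motif named CCAAT after its letters. The last motif was the TATA box of the basal transcription machinery, searched as TATANA. The windows are chr12:57752261-57752560 on the minus strand for *CDK4*, chr6:36678464-36678763 on the plus strand for *CDKN1A* and chr12:12717118-12717417 on the plus strand for *CDKN1B*.
CDK4: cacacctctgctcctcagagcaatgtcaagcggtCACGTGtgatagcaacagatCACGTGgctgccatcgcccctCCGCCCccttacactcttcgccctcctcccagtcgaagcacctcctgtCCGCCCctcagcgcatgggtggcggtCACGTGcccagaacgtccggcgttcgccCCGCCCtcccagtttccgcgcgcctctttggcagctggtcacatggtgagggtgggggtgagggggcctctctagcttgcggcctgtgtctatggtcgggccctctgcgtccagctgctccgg
CDKN1A: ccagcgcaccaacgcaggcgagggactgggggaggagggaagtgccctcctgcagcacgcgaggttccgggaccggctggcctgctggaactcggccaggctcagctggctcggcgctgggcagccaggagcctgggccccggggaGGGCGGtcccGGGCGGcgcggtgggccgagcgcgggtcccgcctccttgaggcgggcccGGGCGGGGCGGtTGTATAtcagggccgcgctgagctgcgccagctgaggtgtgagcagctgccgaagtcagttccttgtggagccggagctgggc
CDKN1B: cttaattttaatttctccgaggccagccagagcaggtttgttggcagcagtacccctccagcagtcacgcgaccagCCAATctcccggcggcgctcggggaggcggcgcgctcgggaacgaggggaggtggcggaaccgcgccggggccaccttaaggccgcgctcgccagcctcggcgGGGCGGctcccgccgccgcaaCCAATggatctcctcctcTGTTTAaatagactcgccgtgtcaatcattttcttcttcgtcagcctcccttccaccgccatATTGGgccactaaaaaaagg
The *CDK4* window held 3 E-boxes and 3 GC boxes. The *CDKN1A* window held 4 GC boxes, of which the last 2 share a base, and 1 TATA box on the reverse strand. The *CDKN1B* window held 3 CCAAT boxes, 1 GC box and 1 forkhead site. Of 35116 RefSeq windows of this length, 7.26% held at least 1 E-box, 45.0% a GC box, 12.3% a forkhead site, 34.6% a CCAAT box and 19.0% a TATA box. None of the 3 windows held the AP-1 letters (7.71% of all windows), the cAMP response element core (7.98%) or the E2F letters (1.79%). A match is a description of the letters and not evidence that a factor binds there.

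Of the kinases, *CDK6* fell in both lines, whereas *CDK4* fell in MDA-MB-231 and did not pass the test in 4T1. Human *CDK4* (ENSG00000135446, chr12:57747727-57756013 in hg38) measured 115, 115 and 114 CPM with DMSO and 71.6, 74.3 and 78.8 CPM with ponatinib. The DMSO libraries were nearly equal and all ponatinib libraries were lower, a log2 fold change of -0.62 (95% confidence interval -0.78 to -0.45, adjusted p = 2.98e-05 in edgeR's quasi-likelihood fit). In 4T1, *Cdk4* measured 485, 467 and 502 CPM with DMSO and 480.0, 505 and 525 CPM with ponatinib, with overlapping groups. The log2 fold change was 0.06 (95% confidence interval -0.10 to 0.21, adjusted p = 0.540), and with total counts it was 0.17 (adjusted p = 0.0502). *Cdk4* in 4T1 is overlapped by *Tspan31* on the opposite strand, with 4926 counts over the DMSO and 3889 over the ponatinib libraries.

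*CDK6* (ENSG00000105810, chr7:92604921-92836573 in hg38), which encodes the other kinase partner of the D-type cyclins, measured 57.9, 66.5 and 62.2 CPM with DMSO and 33.6, 34.1 and 36.5 CPM with ponatinib in MDA-MB-231. In 4T1 the values were 249, 249 and 227 CPM with DMSO and 155, 149 and 138 CPM with ponatinib. In both lines the groups were clearly apart and the ponatinib libraries were lower. The log2 fold changes were -0.84 in MDA-MB-231 (95% confidence interval -1.03 to -0.65, adjusted p = 1.01e-05) and -0.72 in 4T1 (-0.88 to -0.55, adjusted p = 1.75e-06), both by edgeR's quasi-likelihood test.

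The Cip/Kip inhibitors moved apart from each other in MDA-MB-231: *CDKN1A* fell, and *CDKN1B* and *CDKN1C* rose. *CDKN1A* (ENSG00000124762, chr6:36676460-36687337 in hg38) encodes p21, the inhibitor best known as a target of the p53 tumor suppressor. It measured 250.3, 240.5 and 246 CPM with DMSO and 40.9, 36.1 and 38.4 CPM with ponatinib. The 3 libraries of each group were close together and the groups far apart. The level was 6.38-fold lower, from 246 ± 4.93 to 38.5 ± 2.41 CPM (SD, n = 3 each), with a log2 fold change of -2.67 (standard error 0.08, 95% confidence interval -2.85 to -2.50, adjusted p = 1.08e-09 in edgeR's quasi-likelihood fit). By the size of its log2 fold change in either direction, *CDKN1A* ranked at 233 among the 14610 genes tested, and *CCND1* at 511. The fall of *CDKN1A* in MDA-MB-231 was known when the genes were chosen, so that its rank and p-value are a description and not independent support. In 4T1, *Cdkn1a* (ENSMUSG00000023067, chr17:29309936-29319701 in GRCm39) measured 184, 147 and 158 CPM with DMSO and 97.1, 89.7 and 92.4 CPM with ponatinib, again without overlap. Its fall was 1.75-fold, with a log2 fold change of -0.81 (95% confidence interval -0.99 to -0.63, adjusted p = 1.82e-06).

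*CDKN1B* (ENSG00000111276, chr12:12685498-12722369 in hg38), which encodes p27, rose in MDA-MB-231 and fell in 4T1. The human gene measured 28.5, 32.4 and 36.6 CPM with DMSO and 43.8, 51.7 and 53 CPM with ponatinib. All ponatinib libraries were higher than all DMSO libraries, with a log2 fold change of 0.61 (95% confidence interval 0.36 to 0.85, adjusted p = 7.52e-04 in edgeR's quasi-likelihood fit). In 4T1 the DMSO libraries measured 72.4, 86.9 and 84.7 CPM and the ponatinib libraries 71.3, 67.6 and 59.2 CPM, so that the lowest DMSO library lay just above the highest ponatinib library. The log2 fold change of -0.30 (95% confidence interval -0.50 to -0.10, adjusted p = 0.0120) was near the threshold. It did not pass with total counts (-0.18, adjusted p = 0.115), without the second DMSO library (-0.25, adjusted p = 0.0571) or without the third ponatinib library (-0.23, adjusted p = 0.0729).

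*CDKN1C* (ENSG00000129757, chr11:2883213-2885775 in hg38) encodes p57, an imprinted inhibitor of the same family. In MDA-MB-231 it measured 12.4, 7.45 and 11.6 CPM with DMSO and 52.7, 40.5 and 38.8 CPM with ponatinib. The lowest ponatinib library was still far above the highest DMSO library. The rise was 4.19-fold, with a log2 fold change of 2.07 (95% confidence interval 1.68 to 2.46, adjusted p = 2.16e-06 in edgeR's quasi-likelihood fit). 4T1 held only 1 count of *Cdkn1c* over the 3 DMSO libraries and 3 counts over the 3 ponatinib libraries, so that no fold change is given there.

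**Figure D2:**
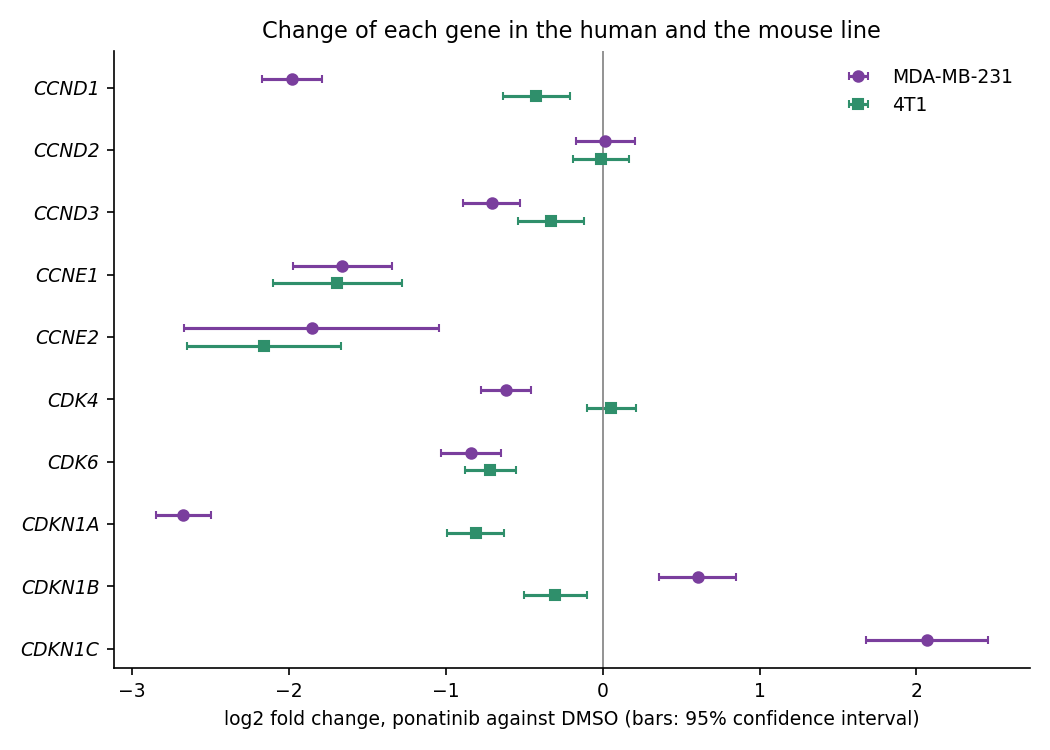
Log2 fold change of each gene, ponatinib against DMSO, in MDA-MB-231 (circles) and 4T1 (squares), with bars for the 95% confidence interval of edgeR's quasi-likelihood fit (3 libraries per group). The intervals of the lines are apart for *CCND1*, *CDK4*, *CDKN1A* and *CDKN1B*, overlap by a small margin for *CCND3* (-0.89 to -0.52 and -0.54 to -0.12) and more widely for *CCND2*, *CCNE1*, *CCNE2* and *CDK6*, and *CDKN1C* has a value in MDA-MB-231 alone.

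The responses of the lines were compared by a line-by-treatment interaction term, fitted over 12493 genes with a common symbol in human and mouse, of which 42.0% differed at an adjusted p under 0.05. Of the 9 genes of the set in this fit, 5 differed. The fall of *CDKN1A* was 1.86 log2 units shallower in 4T1 than in MDA-MB-231 (95% confidence interval 1.61 to 2.12, adjusted p = 7.11e-10 in edgeR's quasi-likelihood fit). That of *CCND1* was 1.56 units shallower (1.26 to 1.85, adjusted p = 5.74e-08). *CDK4* differed by 0.67 units (0.46 to 0.88, adjusted p = 2.73e-05), with a fall in the human line alone. *CDKN1B* differed by -0.91 units (-1.23 to -0.59, adjusted p = 8.83e-05) and was the one gene that passed the test in both lines with opposite directions, although its call in 4T1 was lost under some settings. The difference in *CCND3* was small, 0.38 units (0.10 to 0.65, adjusted p = 0.0262), and no longer passed when any 1 of 5 of the 12 libraries was left out, among them replicate 1 of the MDA-MB-231 DMSO group (0.32, adjusted p = 0.0559) and of the 4T1 ponatinib group (0.36, adjusted p = 0.0505). With replicate 1 of every group left out, the same number of genes, 5, differed. The difference was not past the threshold for *CCNE1* (-0.03, 95% confidence interval -0.52 to 0.45), *CCNE2* (-0.30, -1.25 to 0.65), *CDK6* (0.12, -0.11 to 0.36) and *CCND2* (-0.03, -0.28 to 0.22). The interval of *CCNE2* is wide enough to hold differences larger than that of *CDK4*.

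To compare levels between genes, CPM values were divided by the length of the union of each gene's exons in kilobases. On this per-kilobase scale the most abundant genes of the set in MDA-MB-231 with DMSO were *CCND1* (95.9 ± 1.87) and *CDKN1A* (82.0 ± 1.65), followed by *CDK4* (37.1) and *CCND3* (36.0), whose libraries overlapped each other. *CCNE1* came next (9.52), and *CDK6* (5.08), *CCND2* (4.73), *CDKN1C* (4.22) and *CDKN1B* (3.51) followed, each overlapping its neighbour, with *CCNE2* last (0.546). With ponatinib, *CCND1* (24.3), *CDK4* (24.2) and *CCND3* (22.1) were at levels that overlapped, *CDKN1C* (17.7) was above *CDKN1A* (12.9) without overlap, and *CCNE2* remained last. In 4T1 with DMSO, *Cdk4* (140.9) and *Ccnd1* (134) led with overlapping libraries, followed by *Cdkn1a* (27.0) and *Ccnd2* (24.1), which overlapped too, *Cdkn1b* (17.9), *Cdk6* (16.8), *Ccnd3* (5.51), *Ccne1* (2.21) and *Ccne2* (0.918). With ponatinib, *Cdk4* (146) stood above *Ccnd1* (100.2) without overlap. The order depends on the length. Per kilobase of the longest transcript, *CDKN1A* (108) and *CCND1* (108) overlapped in MDA-MB-231 with DMSO, and *CCND3* (86.7) was above *CDK4* (61.6). With ponatinib on that scale, *CCND3* (53.1) was above *CDK4* (40.2), which was above *CCND1* (27.3), all without overlap, and *CCND1* overlapped *CDKN1C* (22.7). In 4T1 with DMSO, *Cdk4* (233) was then above *Ccnd1* (166) without overlap.

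The make-up of 2 families shifted in MDA-MB-231. *CDKN1A* held 91.4% ± 1.01 of the summed per-kilobase level of the 3 Cip/Kip genes with DMSO and 35.8% ± 1.56 with ponatinib (SD, n = 3 each), so that its share fell by 55.6 percentage points. *CDKN1C* went from 4.69% to 49.1% and *CDKN1B* from 3.92% to 15.0%, and none of these shares overlapped between the groups (p = 0.1 by a two-sided exact permutation test, which cannot go lower with 3 against 3 libraries). The sum over the 3 genes nevertheless fell to 0.400 of its DMSO level. Within the D-type cyclins, the share of *CCND1* went from 70.2% ± 1.90 to 47.4% ± 3.29 and that of *CCND3* from 26.3% to 43.2%, while the summed level fell to 0.374 (exact permutation p = 0.1 for both shares). With the longest transcript as the length, the *CCND1* share went from 53.9% to 31.7% and that of *CCND3* from 43.3% to 61.8%, so that the order of these genes depends on the length used, although the direction of the shift does not.

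In 4T1 the same shares moved less. *Cdkn1a* held 60.0% ± 5.02 of the Cip/Kip sum with DMSO and 51.5% ± 2.24 with ponatinib, and *Ccnd1* 81.9% ± 1.30 and 77.9% ± 0.427 of the D-type sum (p = 0.1 for each by the same exact permutation test). The sums fell to 0.667 and 0.784 of their DMSO levels. The summed E-type cyclins fell to 0.284 in 4T1 and 0.315 in MDA-MB-231. The sum of *CDK4* and *CDK6* fell to 0.641 in MDA-MB-231 and was 0.993 of its DMSO level in 4T1, where *Cdk4* made up 89.3% of it with DMSO and 93.5% with ponatinib.

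**Figure D3:**
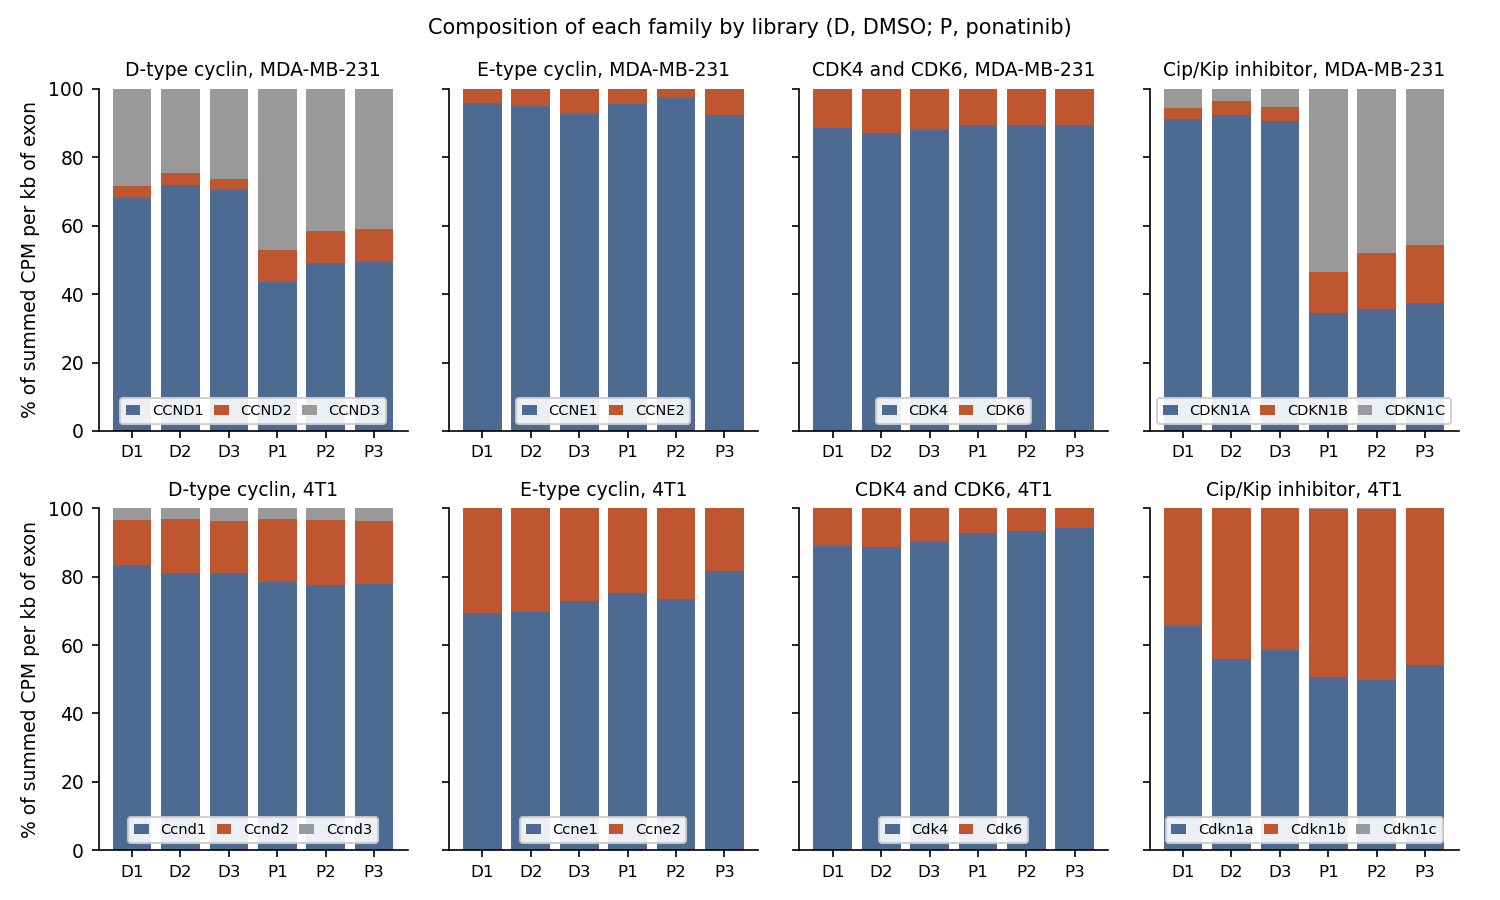
Share of each gene in the summed level of its family (percent of CPM per kilobase of exon) in every library, with 3 DMSO (D) and 3 ponatinib (P) libraries for MDA-MB-231 in the upper row and 4T1 in the lower row. In MDA-MB-231 the *CDKN1A* share drops from above 90% in each DMSO library to under 38% in each ponatinib library, while in 4T1 *Cdkn1a* stays near or above 50% in all libraries.

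Of 26 tested partners of these genes at the G1/S transition (CDK2, A-type cyclins, other inhibitors, pocket proteins, E2F and DP factors, CDC25 phosphatases, *CDKN3*, the CDK-activating kinase genes *CDK7*, *CCNH* and *MNAT1*, and the chaperone genes *CDC37* and *HSP90AB1*), 18 were lower, 5 higher and 3 not called in the human line, and their median log2 fold change was -0.49. In 4T1, 13 of 26 were lower, 4 higher and 9 not called, with a median of -0.20. The shares of all genes called were 26.8% lower and 27.2% higher for the human line. For 4T1 they were 29.4% and 29.5%. The phosphatase gene *CDC25A*, whose product activates CDK2, fell by 2.32 on the log2 scale in MDA-MB-231, from 59.2 to 11.9 CPM, and the E2F repressor gene *E2F7* by 1.38, while the A-type cyclin gene *CCNA1* rose by 1.49. In 4T1, *E2f7* fell by 0.85 and the pocket protein gene *Rbl1* by 0.67, and the DP gene *Tfdp2* rose by 0.65. *RBL1* also fell in MDA-MB-231, by 0.84. All of these passed edgeR's quasi-likelihood test (adjusted p of 0.000148 or less).

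Most of the listed replication genes downstream of E2F were lower in both lines. The counts below stand beside a share of genes called lower of 26.8% (human line) or 29.4% (4T1) among all tested. The lists were not tested against these shares. Of the DNA replication genes of E2F, 27 of 27 tested were lower in MDA-MB-231 (median -1.06) and 22 of 28 in 4T1 (median -0.58, with 3 higher). The ribonucleotide reductase gene *RRM2* fell from 348 to 43.8 CPM in MDA-MB-231 and *Rrm2* from 119 to 53.8 CPM in 4T1, where the deepest fall that met the naming rule was that of the replication licensing gene *Cdc6*, from 42.2 to 15.6 CPM. Of 21 genes of G2 and mitosis, 19 were lower in MDA-MB-231 (median -0.57) and 15 in 4T1 (median -0.34), where the mitotic cyclin gene *Ccnb2* was the 1 that rose, with a log2 fold change of 1.02. Among the genes of the turnover of G1 cyclins and inhibitors, MDA-MB-231 had 8 of 22 lower and 1 higher (median -0.10), and 13 of 21 were lower and 1 higher in 4T1 (median -0.27). *DTL*, whose ubiquitin ligase degrades p21 during S phase, fell by 1.75 on the log2 scale in MDA-MB-231 and by 0.88 in 4T1. *SKP2*, whose ligase degrades p27, fell by 0.64 in MDA-MB-231 and by 0.71 in 4T1.

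The p53 target genes, of which *CDKN1A* is the best known, were called at shares that can be read beside those of all genes tested (for the human line 26.8% lower and 27.2% higher, for 4T1 29.4% and 29.5%). Of 28 tested p53 targets other than *CDKN1A* in MDA-MB-231, 10 were lower, 12 were higher and 6 were not called, with a median of 0.12 on the log2 scale. In 4T1, 11 of 26 were lower, 9 higher and 6 not called, with a median of -0.03. *AEN*, which encodes an apoptosis-enhancing nuclease, fell from 82.7 to 15.9 CPM in MDA-MB-231 (log2 fold change -2.38), whereas the cytokine gene *GDF15* rose from 6.18 to 45.8 CPM (2.89) and *TP53INP1* from 4.41 to 16.3 CPM (1.88). In 4T1, *Gdf15* fell by 1.52 on the log2 scale, *Plk3* by 1.95 and *Btg2* by 0.94.

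Transcription factors known to act on these genes were counted beside the same shares of all genes. In MDA-MB-231, 8 of 33 tested were lower, 12 higher and 13 not called (median 0.01), and in 4T1, 17 of 33 were lower, 9 higher and 7 not called (median -0.25). *FOSL1*, which encodes the AP-1 subunit FRA1, fell from 857 to 130 CPM in MDA-MB-231 (log2 fold change -2.72) and from 684 to 222 CPM in 4T1 (-1.62). *Jun*, which encodes another AP-1 subunit, fell from 161 to 18.1 CPM in 4T1 (-3.16), and in MDA-MB-231 *FOS* rose from 5.86 to 30.4 CPM (2.38). The inhibitor of differentiation gene *ID3* rose there from 71.8 to 360.3 CPM (2.33), and *Stat5a* rose from 6.73 to 23.7 CPM in 4T1 (1.81). *MYC* was named after its values were seen. In MDA-MB-231 it went from 338 to 243 CPM (log2 fold change -0.47). *Myc* in 4T1 went from 755 to 407 CPM (-0.89), and both falls passed the test. A link between *MYC* and the level of *CDK4* was not tested.

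**Figure D4:**
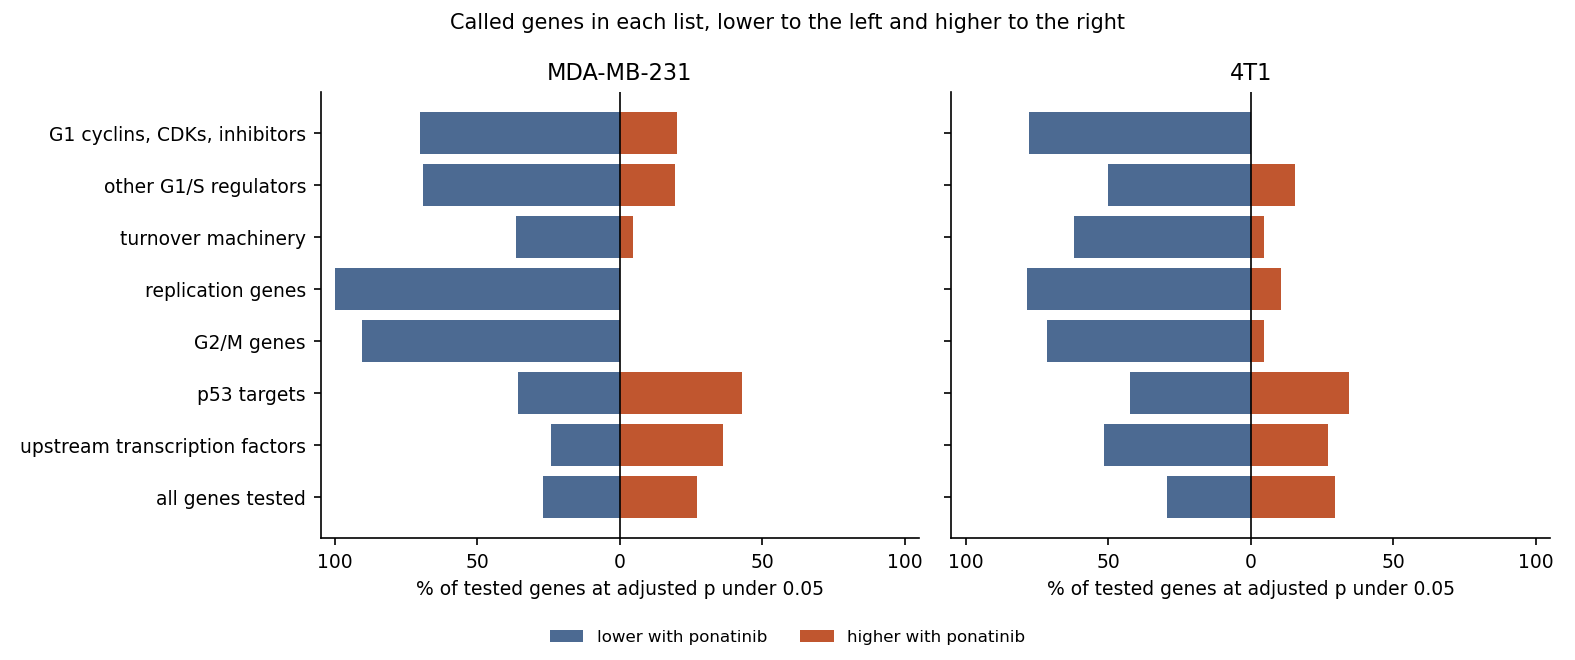
Percent of the tested genes of each list that were lower (left of 0) or higher (right of 0) with ponatinib at an adjusted p under 0.05 by edgeR's quasi-likelihood test, in MDA-MB-231 (left panel) and 4T1 (right panel), with all genes tested as the lowest bar. The replication genes lie to the left of 0 in MDA-MB-231 with 27 of 27 genes, and the p53 targets lie on both sides in both lines, as all genes do.

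The genes whose profile over the 12 libraries was most like that of *CDKN1A* were the chemokine gene *CXCL1*, the urokinase receptor gene *PLAUR* and the ETS factor gene *ETV5*, among 9842 genes tested in both lines under the same symbol. Likeness was measured as the root mean square difference of log2 CPM centred within each line, which was 0.0883, 0.105 and 0.188 for these genes against a median of 0.999 over all genes compared. For *CCND1* the nearest were the plasminogen activator gene *PLAT* (0.112), the chemokine gene *CXCL3* (0.143) and the co-receptor gene *RGMB* (0.185), against a median of 0.743. The log2 fold changes of *CXCL1* were -2.54 in MDA-MB-231 and -0.75 in 4T1, beside -2.67 and -0.81 for *CDKN1A*. The genes named were picked as the nearest, so that their distances lie below the median by the choice itself. These profiles are led by the difference between the treatments within each line, and no test was made of them.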

How the data were processed

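RNA was isolated with TRIzol and libraries were made with the NEBNext Ultra RNA kit. The authors removed adapter and poly-N reads, aligned the rest with HISAT2 to hg38 or GRCm39 and counted reads per gene with HTSeq, and they deposited the raw, unnormalized count of each gene. Tool versions, the annotation and the strand setting were not given in the sources used here. Of the 63677 human identifiers, 81.9% (99.3% of counts) were matched to GENCODE v44 for names, positions and lengths, and 91.1% of the 47729 mouse identifiers (99.8% of counts) to GENCODE vM39.

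The counts of each line (3 ponatinib and 3 DMSO libraries) were analysed apart with edgeR 4.0.16 under R 4.3.3, by its quasi-likelihood test after filterByExpr and TMM, and p-values were adjusted by Benjamini-Hochberg over all genes tested. The lines were compared by the interaction of line and treatment over genes of the same symbol. Confidence intervals come from the quasi-likelihood standard errors. Simulated counts with known changes were used to test the edgeR fits within each line and that of the interaction. No library was a copy of another (chi-square per gene between replicates 2.86 to 14.7). Replicates of MDA-MB-231 had a common biological coefficient of variation of 0.0990, and those of 4T1 of 0.0869. Deviations from the group means correlated between libraries of the same replicate number (MDA-MB-231: r = 0.345, 0.111 and 0.133; 4T1: r = 0.213, 0.119 and 0.115), against -0.260 to 0.163 and -0.213 to 0.119 between different numbers. Only the value of replicate 1 stood above all those between different numbers in each line, so that these values do not settle whether the numbers mark pairs. The fits and exact tests printed here do not use the numbers, and a replicate block was an alternative for the fits.

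The 10 genes, the other lists and their tests were chosen with earlier results of these data known. Named are the 10 genes; from each other list and line, up to 3 called genes with the largest change, no overlap and 10 CPM or more as the higher group mean; and the 3 genes nearest in profile to *CDKN1A* and to *CCND1*. *CDH1*, *PTPRC*, *VIM* in 4T1, *RBL1* and *SKP2* in MDA-MB-231, and *MYC* were named outside this rule, with their values seen. Alternatives were DESeq2 1.42.0, its size factors, total counts, no filter or at least 10 counts in every library, a replicate block, other gene lengths, each library left out and, added after seeing the data, replicate 1 of every group left out.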

Additional observations from a re-analysis of the deposited data

Results flagged for a closer look

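For 5 of the 9 genes in the interaction fit, the response to ponatinib differed between the lines (edgeR's quasi-likelihood fit, adjusted by Benjamini-Hochberg). Among all 12493 genes fitted, the share that differed was 42.0%, and the set was not tested against that share. The differences of log2 fold change, 4T1 minus MDA-MB-231, were 1.56 for *CCND1*, 0.38 for *CCND3*, 0.67 for *CDK4*, 1.86 for *CDKN1A* and -0.91 for *CDKN1B*. For *CDKN1A* and *CCND1* both lines moved down and the human line moved further. For *CDKN1B* the lines moved in opposite directions. Species, cell line and the annotation used for counting cannot be told apart in these differences.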

How the results depend on the processing

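Of 416 values of single genes under the alternatives, 384 kept their direction and their side of the threshold, 10 kept their direction and no longer passed, and 22 changed sign, all of the last for differences that did not pass in the first place. The fall of *CDKN1A* in MDA-MB-231 ranged from -2.72 to -2.58 over all alternatives. The genes that were lower numbered 6 or 7 in MDA-MB-231, with 6 where *CCNE2* was removed by a minimum of 10 counts in every library, and 5 to 7 in 4T1, with 5 under total counts, which took out *Ccnd3* and *Cdkn1b*. Under total counts the median over all genes shifted to 0.11 (MDA-MB-231) and 0.12 (4T1) on the log2 scale, and the calls went from 3918 down and 3975 up to 3102 and 4634 in the human line, and from 3909 and 3925 to 2936 and 4853 in the mouse line. Signs turned for *CCND2* in MDA-MB-231 with DESeq2 (-0.0047) and no filter (-0.013), and from -0.0227 to 0.0401 with each library left out; for *Ccnd2* in 4T1 with total counts (0.11) and the minimum of 10 counts (0.0066), and from -0.0884 to 0.0372 with each left out; and, without a filter, for the differences between the lines in *CCND2* (0.0069; -0.104 to 0.0213 with each left out) and *CCNE1* (0.00041; -0.212 to 0.132). With replicate 1 of every group left out, chosen after seeing the data, those of *CCNE1* (0.222) and *CCNE2* (0.0162) turned, neither past the threshold. With each library left out, 4 or 5 genes differed between the lines. The difference in *CCND3* then ranged from 0.30 to 0.46, with an adjusted p of up to 0.0814 (edgeR's quasi-likelihood test), and did not pass without the first DMSO or second ponatinib library of MDA-MB-231, or DMSO library 2 or ponatinib library 1 or 3 of 4T1. Without division by length, the *Ccnd1* share in 4T1 moved by -5.42 percentage points in place of -3.92. With the replicate block, the human line had 7 genes down and 2 up, the mouse line 7 down, and 5 differed between the lines. Fitting the replicate numbers as pairs thus changed no call of these genes. With 3 libraries per group, exact tests of shares cannot go below p = 0.1, and *CCNE2* in MDA-MB-231 and *Cdkn1c* in 4T1 are limited by their low counts.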
